A study of Mus musculus with 18 samples.

Results

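The circadian clock was followed through 10 genes in mouse embryonic fibroblasts (MEFs): the period genes Per1, Per2 and Per3, the cryptochromes Cry1 and Cry2, the nuclear receptors Nr1d1 and Nr1d2, the output factor Dbp, the repressor Bhlhe40, and Arntl, which encodes BMAL1. They were taken as a named list, which makes 10 of the 47937 gene IDs in the count table. The study asked what forced or repressed transcription of the major satellite repeat does to other RNAs. Its MEF lines carry an inducible dCas9, a Cas9 that binds DNA without cutting it, directed to that repeat. Total RNA, depleted of ribosomal RNA, was sequenced from both ends at 150 bp. The activator line expresses dCas9-VPR, a fusion to a transcriptional activator, and was induced with 10 ng/ml doxycycline for 6 h. The repressor line expresses dCas9-KM, described as a transcriptional repressor, and was induced with 100 ng/ml for 24 h. The control line, dCas9-control, was induced with 10 ng/ml for 24 h. Each line also had an uninduced group labelled untreated, which gave 6 groups of 3 libraries. All lines were grown under the same hygromycin selection in serum free of tetracycline.

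The labels give no time of day of harvest, no synchronising treatment and no word on whether a line was 1 clone. They also do not say that replicates were separate cultures, so the p-values below rest on a spread that may be only technical. The activator line was induced for 6 h and the control line for 24 h, and the repressor line received more doxycycline. Effects of the effector, of time and of dose therefore cannot be told apart between lines.

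The mammalian clock is a feedback loop of transcription. CLOCK and BMAL1 bind E-boxes in the promoters of the Per, Cry, Nr1d and Dbp genes and activate them, and the PER and CRY proteins return to the nucleus to inhibit that pair. NR1D1 and NR1D2 (REV-ERB alpha and beta) repress Arntl through elements that the ROR receptors use to activate it, and DBP activates genes with a D-box, Per genes among them. BHLHE40 (DEC1) competes for E-boxes. Fibroblasts hold this oscillator cell by cell, and serum, cAMP and glucocorticoids reset it, with Per1 and Per2 as early responders.

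The promoter elements of that loop were looked for in RefSeq windows (GRCm38.p6) from 250 bases before to 50 after each transcription start, on both strands. Windows were found for 8 of the 10 genes, 10 windows in all, and those of Per2 and Bhlhe40 were not analysed here. The E-box CACGTG was in 2 of the 10 windows and in 7.15% of all 32851 windows of 300 bases. The variant CACGTT was in 3 and in 4.68%. A D-box, TTATGTAA or TTACGTAA, was in 1 and in 1.06%, and the REV-ERB/ROR element, AAN followed by TAGGTCA or TGGGTCA, was in 1 and in 0.435%. The cAMP response element TGACGTCA was in 0 and in 1.79%. No 2 of the matches in the windows of these genes overlapped. A match is only a match of letters in this window.

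The stretches below are shown because they carry the named elements and belong to genes that behaved differently on induction of the activator: Per1 and Nr1d1 fell, Arntl fell less, and Cry1 and Per3 were not called. They are written 5′ to 3′ in lower case with every match of the elements above in capitals. The stretches of Per1 (chr11:69098699-69098938, plus strand), Cry1 (chr10:85185065-85185304, minus strand), Nr1d1 (chr11:98775388-98775627, minus strand) and Per3 (chr4:151044676-151044915, minus strand) run from position −250 to −11 of their start. The E-box of Per1 begins at −166 and that of Cry1 at −60. The variant, which reads AACGTG on the strand shown, begins at −79 in Cry1 and at −28 in Nr1d1, and the D-boxes of Per3 at −205 and −158. For Arntl (chr7:113207528-113207557, plus strand) only 30 bases around the element, which begins at position 28 within the first exon, are shown.
Per1: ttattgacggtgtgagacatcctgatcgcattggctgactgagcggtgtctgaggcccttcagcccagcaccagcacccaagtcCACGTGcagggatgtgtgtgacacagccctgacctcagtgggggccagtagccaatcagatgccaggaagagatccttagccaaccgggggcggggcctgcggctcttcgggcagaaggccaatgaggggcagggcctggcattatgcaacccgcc
Cry1: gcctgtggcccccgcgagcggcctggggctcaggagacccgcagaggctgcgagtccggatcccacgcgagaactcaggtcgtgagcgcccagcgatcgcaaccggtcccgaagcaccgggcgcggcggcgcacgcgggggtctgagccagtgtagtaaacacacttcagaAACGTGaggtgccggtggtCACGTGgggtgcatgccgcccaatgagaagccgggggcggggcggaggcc
Nr1d1: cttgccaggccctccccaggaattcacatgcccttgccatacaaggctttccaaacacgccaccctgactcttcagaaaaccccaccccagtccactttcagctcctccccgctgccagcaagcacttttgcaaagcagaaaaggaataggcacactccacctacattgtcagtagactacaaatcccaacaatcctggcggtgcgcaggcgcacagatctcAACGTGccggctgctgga
Per3: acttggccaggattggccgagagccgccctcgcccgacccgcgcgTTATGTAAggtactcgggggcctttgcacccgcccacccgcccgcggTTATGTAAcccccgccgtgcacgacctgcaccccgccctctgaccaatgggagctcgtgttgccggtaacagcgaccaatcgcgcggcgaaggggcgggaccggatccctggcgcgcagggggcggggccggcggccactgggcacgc
Arntl: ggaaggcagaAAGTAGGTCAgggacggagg

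The libraries held between 14928765 and 25262912 counts each. Levels are CPM, counts brought to a common library size, with sizes scaled by TMM, a factor that takes most genes as unchanged. A gene rose or fell where the edgeR quasi-likelihood test passed an adjusted p of 0.05 (Benjamini-Hochberg over 16216 genes). Gm10800, a gene model known to hold satellite sequence, served as a check of the labels: it had 2931, 2386 and 2071 CPM in the induced activator libraries, against 18.7, 17.7 and 20.4 CPM in the uninduced ones. In the repressor line it had 0.302, 0.448 and 0.265 CPM induced, against 4.16, 3.40 and 3.31 CPM uninduced. It was also lower on induction of dCas9 alone, with 1.26, 0.740 and 1.49 CPM in induced control libraries, against 4.93, 5.17 and 3.48 CPM in uninduced ones. Of 10 fibroblast markers, 8 were above 1 CPM in every library. Their sum was at 24651.2 to 25129.2 CPM in induced activator, 19504.5 to 19839.6 CPM in induced repressor and 21506.5 to 23221.6 CPM in the other libraries. Induced against uninduced in the activator line, Pdgfra averaged 31.6 against 70.3 CPM and Pdgfrb 55.9 against 124 CPM. Col1a1, Col1a2, Col3a1, Fn1, Vim and Sparc had higher means when induced. The summed list of 5 endothelial markers was at 19.6 to 24.3 CPM in the induced activator libraries and at 0.486 to 1.41 CPM in the others. Almost all of it was Pecam1, at 18.3 to 23.3 CPM, whereas Cdh5 averaged 0.0183, Kdr 0.183, Vwf 0.254 and Tek 0.905 CPM there. The summed list of 4 adipocyte markers was at 2.66 to 3.80 CPM in the induced activator libraries, of which Adipoq made up 1.74 to 2.92 CPM, and at most at 0.217 CPM in the others. Summed neural markers were at 26.5 to 29.4 CPM in induced activator, 52.4 to 53.5 CPM in induced repressor and 31.7 to 36.2 CPM in the other libraries. Most of that sum was Tubb3, which averaged 21.2 CPM in induced against 34.4 CPM in uninduced activator libraries. In the repressor line Tubb3 averaged 52.9 CPM induced against 34.2 CPM uninduced. Gfap went the other way in the activator line, at 5.78 to 7.61 CPM in induced activator libraries and at most at 0.272 CPM in the others. Map2, Snap25 and Sox10 were at most at 0.110 CPM in any library. Summed muscle markers were at 10.6 to 11.8 CPM in induced repressor libraries and at 6.53 to 10.5 CPM in the others, while the ranges of the epithelial and leukocyte lists overlapped between induced and uninduced libraries of the activator line. The part of these cell type lists in the results below was not tested. In RNA from whole cultures, fewer cells of a type and less RNA per cell cannot be told apart.

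All 10 clock genes passed the filter on low counts, and their levels spanned a wide range. Per kilobase of exon, in the uninduced control line, Bhlhe40 averaged 12.7 CPM per kb, Nr1d2 7.60, Cry1 5.61, Per1 5.29 and Cry2 3.83 CPM per kb. Lower on that scale were Nr1d1 at 2.47, Per2 at 2.44, Arntl at 1.50, Per3 at 1.17 and Dbp at 0.404 CPM per kb. Dbp thus rested on few reads, between 26 and 82 counts per group of 3 libraries. Over the 6 groups, the induced activator libraries had the lowest mean CPM for 9 of the 10 genes, and the uninduced activator libraries for Per3. The induced repressor libraries had the highest mean for 5 genes, namely Per1, Per2, Per3, Cry1 and Bhlhe40. The share of all genes with the same lowest or highest group was not counted, so these ranks are a description only.

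Within each gene, the groups of the repressor and control lines mostly differed by little, as the mean ± SD of 3 libraries shows. Per1 averaged 32.4 ± 0.106 CPM in induced and 30.4 ± 2.10 CPM in uninduced repressor libraries, and 29.5 ± 0.326 CPM in induced and 29.8 ± 0.392 CPM in uninduced control libraries. Only the induced repressor group stood clear of its neighbour in that order. Cry2 averaged 25.2 ± 1.27 and 24.0 ± 0.249 CPM in induced and uninduced repressor libraries, and 26.2 ± 0.933 and 24.2 ± 0.413 CPM in induced and uninduced control libraries. Each of these groups overlapped its neighbour in the order of means, but within both lines the induced libraries lay above the uninduced ones. Cry1 averaged 19.0 ± 0.373 and 18.9 ± 0.368 CPM in induced and uninduced repressor libraries, and 17.7 ± 1.70 and 18.7 ± 0.594 CPM in induced and uninduced control libraries. For Cry1 every neighbour in the order of all 6 groups overlapped, the activator line included. Bhlhe40 averaged 67.9 ± 4.28 and 61.3 ± 2.41 CPM in induced and uninduced repressor libraries, and 59.1 ± 2.18 and 59.9 ± 1.37 CPM in induced and uninduced control libraries, and again neighbours overlapped.

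The receptors and Arntl were ordered otherwise. Nr1d2 averaged 33.5 ± 1.54 and 36.0 ± 0.154 CPM in induced and uninduced repressor libraries, and 39.6 ± 1.62 and 41.1 ± 1.15 CPM in induced and uninduced control libraries. All 6 repressor libraries were thus below all 6 control libraries for Nr1d2. Nr1d1 averaged 6.76 ± 0.609 and 6.60 ± 0.445 CPM in induced and uninduced repressor libraries, and 7.86 ± 0.420 and 7.59 ± 0.672 CPM in induced and uninduced control libraries, and its highest group was the uninduced activator line at 8.80 ± 0.235 CPM. Arntl averaged 12.2 ± 1.21 and 12.7 ± 0.733 CPM in induced and uninduced repressor libraries, and 12.5 ± 0.709 and 11.3 ± 0.574 CPM in induced and uninduced control libraries. Neighbours in the order of means overlapped, but the induced control libraries lay above the uninduced control ones. Dbp averaged 1.23 ± 0.329 and 1.36 ± 0.305 CPM in induced and uninduced repressor libraries, and 0.992 ± 0.108 and 1.21 ± 0.0705 CPM in induced and uninduced control libraries. For Dbp the 6 activator libraries were below all 12 others.

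**Figure D1:**
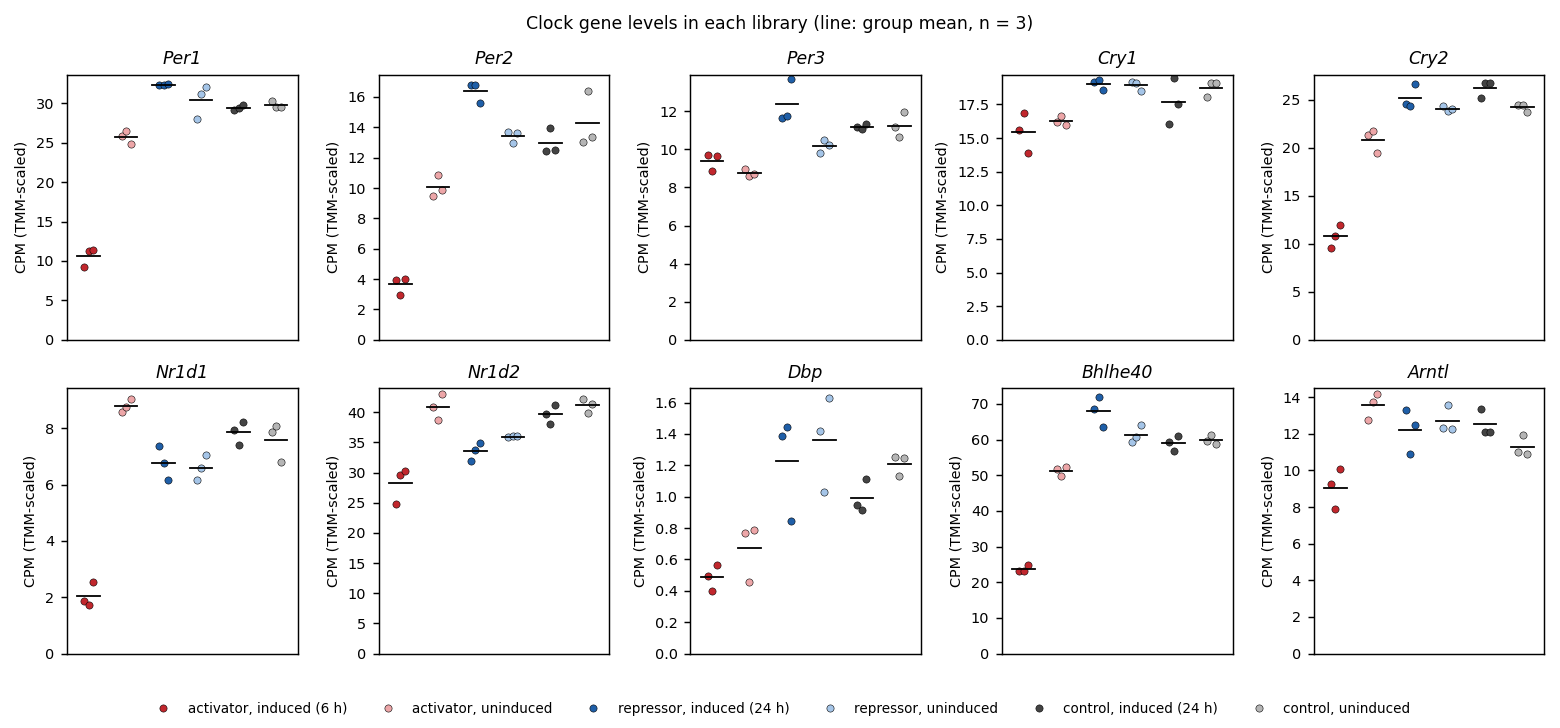
Level of each clock gene (y axis, TMM-scaled CPM from 0) in each library, with 1 point per library and a line at the mean of the 3 libraries of a group. The 3 induced activator libraries lie below the other 15 for Per1, Per2, Cry2, Nr1d1, Nr1d2, Bhlhe40 and Arntl. Per3 and Cry1 differ little between induced and uninduced activator libraries. For Per3 all activator libraries, at most at 9.68 CPM, lie below all others, at 9.80 CPM or more.

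Most of the loop was lower in the activator line after induction. Of the 10 genes, 7 fell (Nr1d1, Per2, Per1, Bhlhe40, Cry2, Arntl and Nr1d2), 0 rose, and 3 (Per3, Cry1 and Dbp) were not called. Over all genes tested, 75.3% were called in this comparison, 37.2% lower and 38.2% higher. The median change over the 10 genes was −0.76 on the log2 scale, against 0.004 over all genes tested. The 7 genes that fell were also those whose induced libraries all lay below the uninduced ones, as 37.8% of all genes did.

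Among the inhibitors of the loop, the period gene Per1 (ENSMUSG00000020893.17, chromosome 11, 69095217 to 69109960, GRCm38) had 9.24, 11.3 and 11.4 CPM in induced activator libraries, against 25.8, 26.5 and 24.8 CPM in uninduced ones. The groups were far apart, and the change was −1.28 (log2, SE 0.07, edgeR adjusted p = 9.32e-29), a level 2.43-fold lower. Per2 (ENSMUSG00000055866.9, chromosome 1, 91415982 to 91459324), its closest partner in the PER complex, had 3.96, 2.94 and 4.04 CPM induced, against 9.47, 10.8 and 9.84 CPM uninduced. It fell 2.72-fold (log2 change −1.44, SE 0.12, edgeR adjusted p = 3.19e-19), with no overlap. Per3 (ENSMUSG00000028957.12, chromosome 4, 151003652 to 151044665), the period gene least needed for rhythm in the mouse, was not called. It had 9.68, 8.87 and 9.66 CPM induced, against 8.97, 8.60 and 8.69 CPM uninduced. These ranges overlapped, and the 95% interval of the log2 change was −0.10 to 0.31 (edgeR adjusted p = 0.292). Per3 lies inside the span of Camta1 on the same strand, with 0 shared exon bases.

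The cryptochromes, which complete the inhibitory complex, split likewise. Cry2 (ENSMUSG00000068742.11, chromosome 2, 92403646 to 92434043) had 9.57, 10.8 and 11.9 CPM in induced activator libraries, against 21.3, 21.8 and 19.4 CPM in uninduced ones. It fell 1.94-fold (log2 change −0.96, SE 0.07, edgeR adjusted p = 1.9e-20), without overlap. Cry1 (ENSMUSG00000020038.9, chromosome 10, 85131700 to 85185064), the stronger repressor of CLOCK and BMAL1, had 15.6, 16.9 and 13.9 CPM induced, against 16.2, 16.6 and 16.0 CPM uninduced. The induced range enclosed the uninduced one, and the 95% interval of the log2 change was −0.25 to 0.08 (edgeR adjusted p = 0.292).

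The REV-ERB receptors repress Arntl. Nr1d1 (ENSMUSG00000020889.11, chromosome 11, 98767932 to 98775333) had 1.87, 1.73 and 2.56 CPM in induced activator libraries, against 8.59, 8.77 and 9.05 CPM in uninduced ones. This was the largest fall among the 10 genes, 4.20-fold (log2 change −2.07, SE 0.14, edgeR adjusted p = 2.99e-24). Nr1d2 (ENSMUSG00000021775.10, chromosome 14, 18204054 to 18239127) had 24.8, 29.6 and 30.2 CPM induced, against 40.8, 38.6 and 43.0 CPM uninduced. Its fall was smaller, 1.44-fold (log2 change −0.53, SE 0.05, edgeR adjusted p = 1.7e-14), though its groups did not overlap either. Nr1d1 shares 263 exon bases with Thra, the thyroid hormone receptor gene on the opposite strand, which fell by 0.31 on the log2 scale. No source states whether counting used strand, so reads of such pairs cannot be told apart.

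Their target Arntl (ENSMUSG00000055116.7, chromosome 7, 113207465 to 113314126) had 9.24, 7.87 and 10.1 CPM in induced activator libraries, against 12.7, 13.7 and 14.2 CPM in uninduced ones. It fell 1.47-fold (log2 change −0.56, SE 0.09, edgeR adjusted p = 4.54e-08), without overlap. Bhlhe40 (ENSMUSG00000030103.11, chromosome 6, 108660629 to 108666925), a repressor at E-boxes, had 23.0, 23.2 and 24.7 CPM induced, against 51.7, 49.7 and 52.3 CPM uninduced. The groups were far apart, and it fell 2.16-fold (log2 change −1.11, SE 0.05, edgeR adjusted p = 1.86e-33). Dbp (ENSMUSG00000059824.11, chromosome 7, 45705088 to 45710203), a direct output of CLOCK and BMAL1, had 0.495, 0.400 and 0.562 CPM induced, against 0.767, 0.455 and 0.790 CPM uninduced. With 26 counts over the induced and 44 over the uninduced libraries, the 95% interval of its log2 change ran from −1.21 to 0.37 (edgeR adjusted p = 0.293). Dbp shares 539 exon bases with Sphk2 on the opposite strand, which fell by 0.75 on the log2 scale. Smaller exon overlaps with opposite-strand genes, of 295 bases in Cry2, 118 in Bhlhe40 and 33 in Arntl, involve gene models that did not enter the test.

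**Figure D2:**
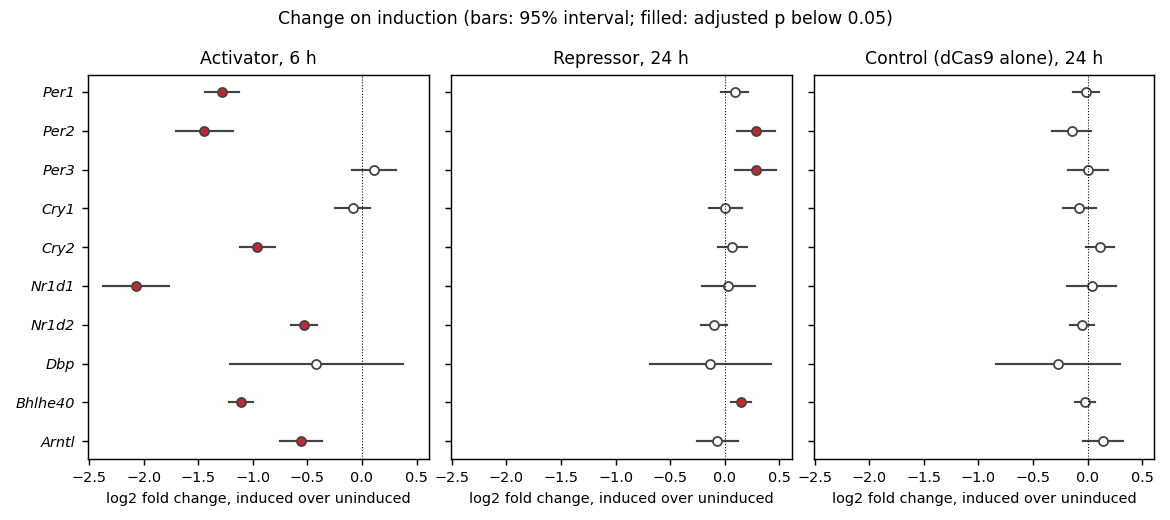
Log2 fold change on induction (x axis, induced over uninduced) of each clock gene in the activator, repressor and control lines, with 95% intervals; filled points have an adjusted p below 0.05. In the activator line the 7 filled points lie left of 0, as do the open points of Cry1 and Dbp. The largest change there is −2.07 for Nr1d1, whereas no change in the other lines exceeds 0.29 in size.

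Since so many genes were called in the activator line, the scaling of the libraries was varied. Gm26917, the gene model with most counts, took 16.2% to 18.5% of counts in induced activator libraries, against 9.28% to 12.1% in the others. Mitochondrially encoded genes took 0.920% to 0.974% of counts, against 0.582% to 0.676%. The median change of all genes was −0.22 with total counts, 0.11 with upper-quartile factors and −0.74 when scaled to mitochondrially encoded genes, and the split of calls moved with it, as 6190 higher and 6028 lower became 3955 and 8094 with total counts and 1404 and 12993 with mitochondrial scaling. The 7 genes that fell did so under every scaling, with Nr1d1 between −2.81 and −1.97 and Per1 between −2.02 and −1.18. The 3 others depended on it. Per3 was called higher with upper-quartile factors (0.21, edgeR adjusted p = 0.0351) and lower with mitochondrial scaling (−0.64, edgeR adjusted p = 1.73e-09). Cry1 was called lower with total counts (−0.31) and, like Dbp (−1.15), with mitochondrial scaling (−0.83). Relative to the median of all genes Per3 stood at 0.10 and Per1 at −1.28 under mitochondrial scaling, and at 0.10 and −1.29 with TMM.

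**Figure D3:**
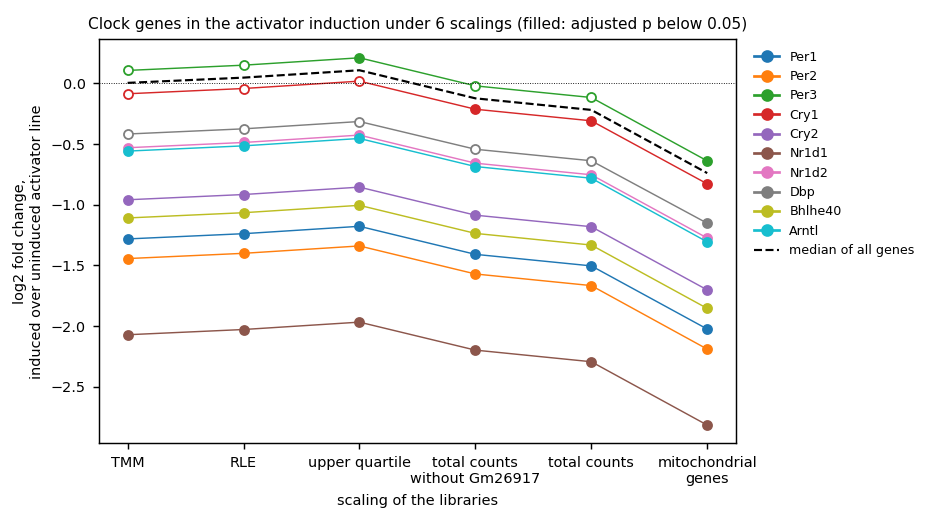
Log2 fold change of each clock gene in the activator line (y axis, induced over uninduced) under 6 scalings of the libraries (x axis), with the median of all genes as a dashed line; filled points have an adjusted p below 0.05. All lines shift together, so that Nr1d1, Per2, Per1, Bhlhe40, Cry2, Arntl and Nr1d2 stay below 0 under each scaling, and Per3 crosses it.

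Ratios of related genes within a library do not depend on that scaling. They were chosen after the values above were seen. The log2 ratio of Per3 to Per1 counts was 0.07, −0.35 and −0.23 in induced activator libraries, against −1.53, −1.62 and −1.51 in uninduced ones. Per3 counts were thus close to those of Per1 once the activator was induced, and the mean ratio differed by 1.38 (SE 0.13). The ratio of Cry2 to Cry1 was −0.70, −0.64 and −0.22 induced, against 0.40, 0.39 and 0.28 uninduced. Cry2 had more counts than Cry1 in all 15 other libraries and fewer in these 3, a difference of −0.88 (SE 0.16). The ratio of Nr1d1 to Nr1d2 was −3.73, −4.09 and −3.56 induced, against −2.25, −2.14 and −2.25 uninduced, a difference of −1.58 (SE 0.16). In each of these ratios the groups did not overlap. The exact two-sided permutation p was 0.1 for each, the smallest that 3 against 3 libraries allow, and 0.3 after Benjamini-Hochberg adjustment over 15 tests.

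For 2 other pairs the difference was smaller. Per2 to Per1 was −1.22, −1.94 and −1.49 in induced activator libraries, against −1.45, −1.29 and −1.33 in uninduced ones, which overlapped (exact permutation p = 0.6). Arntl to Clock, the gene of its dimer partner, was −3.02, −3.22 and −2.86 induced, against −3.29, −3.24 and −3.17 uninduced (difference 0.20, SE 0.11, exact permutation p = 0.2). In the repressor line the ratio of Per3 to Per1 differed by 0.19 between induced and uninduced libraries, without overlap (exact permutation p = 0.1). In the control line the ratio of Cry2 to Cry1 differed by 0.20 (exact permutation p = 0.1).

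**Figure D4:**
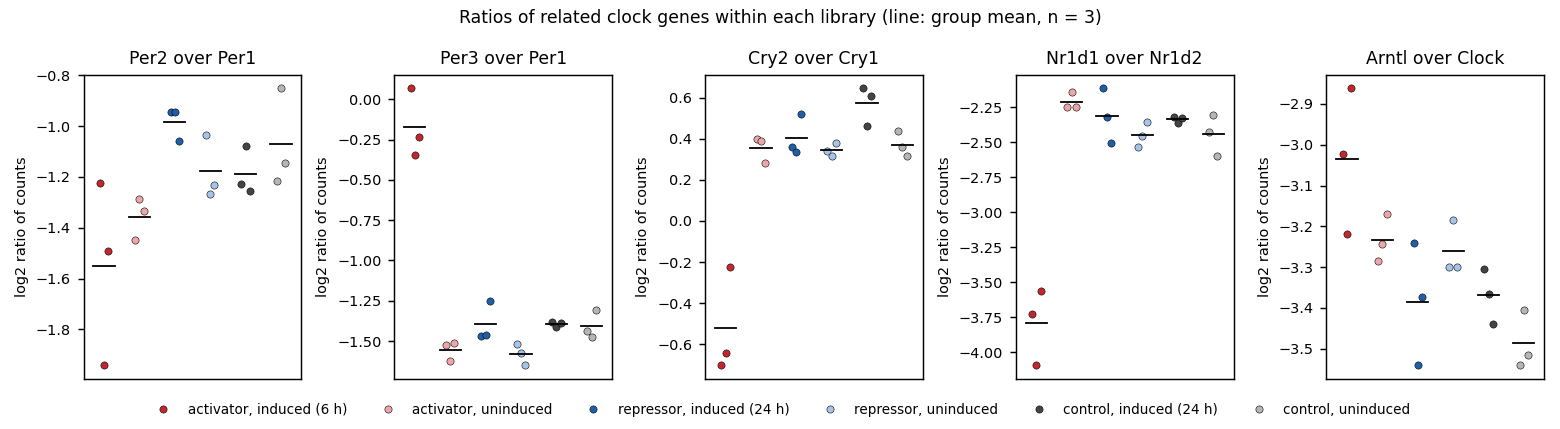
Log2 ratio of the counts of related clock genes within each library (y axis), with 1 point per library and a line at the mean of the 3 libraries of a group. The induced activator libraries lie apart from the other 15 in the Per3 to Per1, Cry2 to Cry1 and Nr1d1 to Nr1d2 ratios, with means of −0.17, −0.52 and −3.79.

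Set against the control line, 7 genes differed in their response to induction in the activator line. The difference in response (activator minus control, an interaction term) was −2.11 for Nr1d1, −1.30 for Per2, −1.27 for Per1, −1.09 for Bhlhe40, −1.07 for Cry2, −0.69 for Arntl and −0.48 for Nr1d2. Their edgeR adjusted p-values lay between 1.66e-25 and 8.18e-07. For Per3 the difference was 0.10 (95% interval −0.17 to 0.38), for Cry1 −0.01 (−0.23 to 0.21) and for Dbp −0.14 (−1.11 to 0.82). Over all genes tested, 63.7% differed and 33% were lower in this comparison. That split depended on the scaling too: 4988 genes were higher and 5349 lower with TMM, against 2686 and 7517 with total counts and 957 and 12059 with mitochondrial scaling. The control line enters this difference and that of the repressor line below, so these are not independent of each other.

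Induction of dCas9 alone for 24 h left the clock genes without a call. In the control line 0 of the 10 genes passed, 0 had an unadjusted p below 0.05, and the lowest edgeR adjusted p was 0.487. DESeq2 and limma-voom called 0 as well. Over all genes, 0.463% were called. Without a call, the induced control libraries lay above the uninduced ones for Cry2 and Arntl and below them for Dbp. The share of all genes with no overlap was not counted in this line. Per1 had 29.1, 29.5 and 29.8 CPM induced, against 30.2, 29.5 and 29.6 CPM uninduced, and Nr1d1 had 7.95, 7.40 and 8.22 CPM induced, against 7.86, 8.08 and 6.82 CPM uninduced. The 95% intervals bounded the log2 change to −0.14 to 0.10 for Per1 and to −0.19 to 0.26 for Nr1d1. The interval for Dbp was wider, −0.84 to 0.30.

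In the repressor line 3 genes rose slightly after 24 h, and 0 fell. Over all genes tested, 9.81% were called in this comparison and 5.21% were higher. Per2 had 16.8, 16.8 and 15.6 CPM induced, against 13.7, 13.0 and 13.6 CPM uninduced. The 2 groups did not overlap, and Per2 rose by 0.29 on the log2 scale (SE 0.08, edgeR adjusted p = 0.0115). Per3 had 11.7, 11.8 and 13.7 CPM induced, against 9.80, 10.5 and 10.2 CPM uninduced, a change of 0.28 (SE 0.09, edgeR adjusted p = 0.0194). Bhlhe40 had 68.5, 71.9 and 63.4 CPM induced, against 59.3, 60.7 and 64.0 CPM uninduced. These ranges overlapped through 1 induced library, and the change was 0.15 (SE 0.04, edgeR adjusted p = 0.00995).

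Each of these 3 calls was lost when certain single libraries were left out, and 2 of them under another scaling. Per2 lost its call without the induced repressor replicate 2 (edgeR adjusted p = 0.0718) or the uninduced replicate 2 (0.0764). Per3 lost its call without the induced replicate 3 (0.226), the uninduced replicate 1 (0.0948) or the uninduced replicate 3 (0.0502), and with DESeq2 (0.0663) or mitochondrial scaling (0.0917). Bhlhe40 lost its call without the induced replicate 2 (0.213) or the uninduced replicates 1 (0.0938) or 2 (0.0535), and with mitochondrial scaling (0.187). The other 7 genes lay between −0.13 for Dbp and 0.09 for Per1 on the log2 scale. Nr1d1, which fell most in the activator line, had 7.37, 6.77 and 6.15 CPM induced, against 6.17, 6.58 and 7.06 CPM uninduced in the repressor line. The 95% interval of its change was −0.21 to 0.28.

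The repressor response differed from that of the control line for Per2 alone, by 0.43 on the log2 scale (SE 0.12, edgeR adjusted p = 0.0164). Over all genes, 2.73% differed and 1.19% were higher. Control libraries had 12.4, 14.0 and 12.5 CPM of Per2 induced, against 13.0, 16.4 and 13.4 CPM uninduced. The call was lost without any 1 of the induced repressor replicate 2 (edgeR adjusted p = 0.059), uninduced repressor replicate 2 (0.0662), induced control replicate 3 (0.0584) or uninduced control replicate 2 (0.238), and with DESeq2 (0.0863). For Per3 the difference was 0.28 (unadjusted p = 0.0208, edgeR adjusted p = 0.269) and for Bhlhe40 0.17 (edgeR adjusted p = 0.118).

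Before induction, the activator line already had lower levels of several clock genes than the control line. It also had more of the satellite gene model Gm10800, at a mean of 18.9 CPM against 4.53 CPM in the uninduced control line. Whether this bears on the clock genes was not tested. In uninduced activator against uninduced control libraries, 7 genes were lower and 1 higher, where 19.5% of all genes were called, 10.5% lower and 8.92% higher. With mitochondrial scaling 317 of all genes were higher and 2462 lower, against 1447 and 1710 with TMM. Per2 had 9.47, 10.8 and 9.84 CPM in the uninduced activator line, against 13.0, 16.4 and 13.4 CPM in the uninduced control line (log2 difference −0.51, SE 0.09, edgeR adjusted p = 1.62e-06). Dbp had 0.767, 0.455 and 0.790 CPM in the activator line, against 1.26, 1.13 and 1.25 CPM in the control line (−0.86, SE 0.29, edgeR adjusted p = 0.0224). In both genes the lines did not overlap. Differences of −0.35 for Per3, −0.23 for Bhlhe40, −0.21 for Per1 and Cry2 and −0.20 for Cry1 also passed. The positive factor Arntl was higher, with 12.7, 13.7 and 14.2 CPM in the activator line, against 11.0, 11.9 and 10.9 CPM in the control line (0.25, SE 0.08, edgeR adjusted p = 0.0237).

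Of these calls, those of Per1, Per2, Per3 and Bhlhe40 held without any single library. Cry1 lost its call in 5 of the 6 fits without 1 library (edgeR adjusted p between 0.0519 and 0.118), Arntl in 4 (0.0734 to 0.103), Dbp in 2 (0.0776 and 0.182) and Cry2 without the uninduced activator replicate 3 (0.063). DESeq2 called 5 of the 8 genes, without Cry1 (adjusted p = 0.0611), Arntl (0.0578) and Dbp, for which it gave no adjusted p. Arntl also lost its call with mitochondrial scaling (0.214) and Cry1 with no filter (0.0567). Per1 was 1.16-fold lower in the activator line before induction, against the 2.43-fold fall on induction. In the uninduced repressor line, 1 gene was lower than in the uninduced control line. Nr1d2 had 35.8, 36.0 and 36.1 CPM there, against 42.1, 39.9 and 41.3 CPM in the control line (−0.19, SE 0.05, edgeR adjusted p = 0.0317). Over all genes 1.56% were called and 0.697% were lower, and the call of Nr1d2 was lost without any single library of either group (adjusted p between 0.0555 and 0.181).

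The rest of the clock was read from 4 lists of 25 genes, of which 21 were tested. In the activator line 8 rose and 12 fell on induction, against 38.2% higher and 37.2% lower of all genes, with a median log2 change of −0.27. In the repressor line 1 rose and 1 fell, where 9.81% of all genes were called, so that the count was near that share. In the control line 0 were called, against 0.463% of all genes. Of 3 tested positive-arm factors, Clock fell, with 75.1, 73.3 and 73.2 CPM in induced activator libraries, against 124, 130 and 127 CPM in uninduced ones (−0.78, edgeR adjusted p = 1.16e-35). Arntl2, a relative of Arntl, fell by 0.36 on the log2 scale, a call lost with upper-quartile factors (edgeR adjusted p = 0.0623) and DESeq2 (0.0538). The activating receptor gene Rora rose by 1.37 from a low level, with 0.990, 1.27 and 1.28 CPM induced, against 0.460, 0.372 and 0.547 CPM uninduced. Its call was lost with mitochondrial scaling (edgeR adjusted p = 0.0716).

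All 3 other repressors fell in the activator line, where 37.2% of all genes were lower. Nfil3, which competes with DBP for D-boxes, had 7.10, 5.67 and 8.74 CPM induced, against 20.5, 22.2 and 20.7 CPM uninduced (−1.54, edgeR adjusted p = 1.33e-28). Ciart (CHRONO), an inhibitor of CLOCK and BMAL1, changed by −1.23, and Bhlhe41 (DEC2), the relative of Bhlhe40, by −1.05. Of 5 tested outputs, 4 fell and 1 rose, against 37.2% lower and 38.2% higher of all genes. Tef, a relative of Dbp at the same D-boxes, had 11.2, 10.7 and 12.1 CPM induced, against 25.8, 22.5 and 22.4 CPM uninduced (−1.06, edgeR adjusted p = 2.11e-23). The deadenylase Noct (−0.56) and the kinase Wee1 (−0.33) fell, while the cold-inducible RNA-binding protein Cirbp rose by 0.41.

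Genes of PER and CRY turnover moved in both directions. Of 10 tested, 6 rose and 3 fell in the activator line, against 38.2% higher and 37.2% lower of all genes. The kinase gene Csnk1e, which marks PER proteins for degradation, fell by 0.50 on the log2 scale. The PER-binding cofactor Nono rose by 0.34, Timeless by 0.32, and Btrc, an F-box protein for PER, by 0.27. The 3 rises reversed under mitochondrial scaling, as did that of Cirbp, and the list then had 0 higher and 10 lower. With total counts it had 2 higher and 5 lower, and Btrc lost its call (0.04, edgeR adjusted p = 0.511). The 3 other repressors and Clock fell under each of the 6 scalings. In the repressor line Noct rose by 0.23 (edgeR adjusted p = 3.71e-05) and Nampt, the rate-limiting enzyme of NAD salvage, fell by 0.16 (edgeR adjusted p = 0.00769). The call of Nampt was lost with total counts (0.0635), mitochondrial scaling (0.0893) and without the uninduced repressor replicate 2 (0.051) or 3 (0.052).

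**Figure D5:**
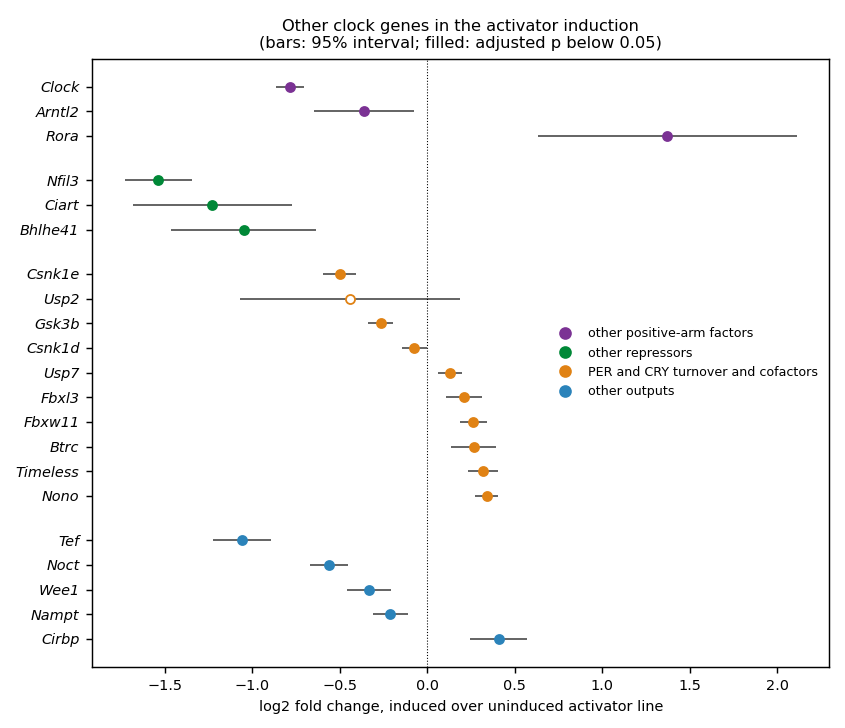
Log2 fold change (x axis, induced over uninduced activator line) of the tested genes of the other clock lists, grouped by role, with 95% intervals; filled points have an adjusted p below 0.05. The repressors Nfil3, Ciart and Bhlhe41 lie left of −1, and the turnover genes lie on both sides of 0.

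Signals known to reset the clock through Per1 and Per2 were read from 2 further lists. Of 9 genes of the cAMP and serum response, 5 rose and 3 fell in the activator line, against 38.2% higher and 37.2% lower of all genes. The split became 4 and 4 with total counts and 2 and 5 with mitochondrial scaling. Egr1 had 289.6, 313.9 and 303.0 CPM induced, against 90.1, 89.5 and 94.3 CPM uninduced (1.73, edgeR adjusted p = 6.95e-62), and Fos had 5.01, 5.47 and 5.32 CPM, against 1.15, 2.03 and 2.25 CPM (1.59, edgeR adjusted p = 1.1e-11). A link of these changes to the lower levels of Per1 and Per2 was not tested. Sik1, a CREB target that restrains resetting, was among the 3 genes of the list that fell with TMM. It had 24.3, 24.2 and 27.4 CPM induced, against 73.3, 73.7 and 69.8 CPM uninduced (−1.51, edgeR adjusted p = 5.02e-45). Fosb, a relative of Fos, rose by 0.88, a call lost without replicate 1 of the induced (edgeR adjusted p = 0.11) or of the uninduced activator libraries (0.072) and with mitochondrial scaling (0.13, adjusted p = 0.678).

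Of 5 tested genes of the glucocorticoid response, 3 fell and 1 rose in the activator line, against 37.2% lower and 38.2% higher of all genes. Sgk1 had 17.6, 18.4 and 16.8 CPM induced, against 66.7, 64.7 and 63.2 CPM uninduced (−1.89, edgeR adjusted p = 1.75e-48). Klf9 had 5.61, 6.21 and 7.06 CPM, against 20.1, 20.0 and 19.5 CPM (−1.66), and the receptor gene Nr3c1 fell by 0.69 on the log2 scale. Fkbp5 was called higher at 0.10 (edgeR adjusted p = 0.0499), which turned to −0.13 with total counts and −0.64 with mitochondrial scaling. Its call was also lost without any 1 of 4 libraries, with no filter, with limma-voom and with only the groups compared (adjusted p between 0.0778 and 0.347). In the repressor line the phosphatase gene Dusp1 rose by 0.53, with 14.1, 14.1 and 14.0 CPM induced, against 8.77, 10.2 and 10.4 CPM uninduced (edgeR adjusted p = 7.77e-06). Ier2 rose by 0.20 there, a call lost with mitochondrial scaling (edgeR adjusted p = 0.107) and without the induced replicate 3 (0.119) or the uninduced replicate 2 (0.12). Sgk1 fell by 0.14, a call lost in 7 alternatives (adjusted p between 0.068 and 0.374): 3 other scalings, DESeq2, and the fits without the induced replicate 3 or the uninduced replicates 2 or 3. In the control line 0 genes of either list were called.

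Over the 18 libraries, Pearson's r of log2 CPM was high between Per1 and some of the genes that fell. It was 0.990 between Per1 and Bhlhe40, 0.985 between Per1 and Cry2, 0.967 between Per1 and Per2 and 0.920 between Per1 and Nr1d1. Nr1d2 and Arntl, which also fell, gave only 0.734 and 0.752 with Per1. Dbp and Cry1, which were not called, gave 0.763 and 0.710 with Per1. Per3 with Per1 gave 0.509 and with Nr1d1 0.257. Among all genes tested, those most like a clock gene were Cbx6 (0.996) and Pde4b (0.995) for Per1, Csf3 (0.996) and Tob2 (0.994) for Bhlhe40, and Bach1 (0.992) and Mir99ahg (0.990) for Cry2. Nr1d1 was most like Gm14636 (0.990) and Btg1 (0.988), and Per2 was most like Arhgef17 and 2010111I01Rik (both 0.988). The highest values were lower for Arntl, with St3gal1 (0.936) and Extl2 (0.927), and for Nr1d2, with Asxl2 and Ak4 (both 0.934). They were 0.917 and 0.905 for Per3 with Ctnnd1 and Jup, 0.914 and 0.909 for Dbp with Arhgap20 and Rassf2, and 0.870 and 0.865 for Cry1 with Fam8a1 and Cbx5. These values describe 18 libraries that share 6 groups, of which the induced activator group stands apart, and no p is given.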

How the data were processed

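Read counts per gene were measured in 18 libraries of 6 groups. The authors deposited 1 table of whole-number counts, not normalized, for 47937 gene IDs, and the build was mm10, per the submitters' processing notes. For the aligner, counter, strand setting and annotation nothing is stated in the sources used here. IDs were matched to GENCODE M21 (GRCm38), where 47310 were found and 627 were not. Promoter windows came from RefSeq (GRCm38.p6).

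Counts were fitted with the quasi-likelihood test of edgeR 4.0.16 (R 4.3.3) in its robust form, after filterByExpr by group and TMM, with 1 coefficient per group. The fit had 12 residual degrees of freedom and a common biological coefficient of variation (the spread beyond counting error) of 0.0246. Libraries held 14928765 to 25262912 counts, and Dbp had as few as 26 counts in a group. Alternatives were 4 other scalings, 2 other filters, DESeq2 1.42.0, limma-voom (limma 3.58.1), fits of the compared groups only, a replicate block and leaving out each library. Total counts without Gm26917, the ratios of related genes and the same alternatives for the other lists were added after seeing the data. The procedure was tested on simulated data, in which few genes changed and a single spread was used for all. That test cannot show how the procedure does where most genes are called, as in the activator line. The clock genes and lists were chosen with earlier results of these data known. All 10 genes are named; from each other list up to 4 called genes with the largest change in the activator line and up to 2 in each other line are named, and the overlapping genes besides. A gene of the lists is not reported here and was left out of their counts. Likeness names the 2 genes with the highest r for each clock gene, at a prior count of 2.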

Additional observations from a re-analysis of the deposited data

Results flagged for a closer look

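The response to induction differed between lines for 8 pairs of gene and line, each by an interaction term of the edgeR fit over 16216 genes. Activator minus control, it was −1.27 for Per1, −1.30 for Per2, −1.07 for Cry2, −2.11 for Nr1d1, −0.48 for Nr1d2, −1.09 for Bhlhe40 and −0.69 for Arntl on the log2 scale. Over all genes tested, 63.7% differed in activator minus control and 33% were lower. All 3 induced activator libraries lay below all 3 uninduced ones for each of these 7 genes, as for 37.8% of all genes. Repressor minus control, the term was 0.43 for Per2, where 2.73% of all genes differed and 1.19% were higher. Time of induction (6 h against 24 h) cannot be told apart from the effector in the activator comparison, nor dose (100 against 10 ng/ml) in that of the repressor. With 3 libraries per group, single outlying libraries were not looked for.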

How the results depend on the processing

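For the 10 clock genes over 7 comparisons, fits without 1 library gave the same call in 509 cases, lost it in 30 and gained it in 1. The other alternatives gave the same call in 800 cases, lost it in 19 and gained it in 7. The same call here includes no call in both fits, so these tallies say little on the calls alone. None of the losses fell on the 7 calls of the activator line or the 7 of activator minus control. All losses thus fell on calls of the other comparisons. In 2 further cases a call of the opposite sign appeared where TMM gave none: Per3 under mitochondrial scaling in the activator line (−0.64, against 0.11) and in activator minus control (−0.60, against 0.10). Of the named genes of other lists, mitochondrial scaling reversed Cirbp (−0.33), Nono (−0.40), Timeless (−0.42), Btrc (−0.48) and Fkbp5 (−0.64). Total counts reversed Fkbp5 (−0.13), whereas total counts without Gm26917 left it with no call (−0.030, edgeR adjusted p = 0.533). These genes kept their call in 451 of the other cases and lost it in 28. The cause was not tested.

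The count of clock genes called in the repressor line was 3, and 1 with mitochondrial scaling or between 1 and 3 without a library. In repressor minus control it was 1, and 0 with DESeq2 or between 0 and 2 without a library. In uninduced activator against uninduced control it was 8, against 5 with DESeq2 and 5 to 7 without a library. In uninduced repressor against uninduced control it was 1, and 0 with total counts, also without Gm26917, with mitochondrial scaling, DESeq2 or limma-voom, and 0 to 0 without a library. Counts over all genes moved too. With mitochondrial scaling they were 717 in the repressor line against 1590, 32 in the control line against 75, 171 in repressor minus control against 442, and 83 in uninduced repressor against uninduced control against 253. That last comparison gave 164 with total counts, 125 with DESeq2, 513 with only the groups compared and 103 to 190 without a library. The control line gave 35 to 58 without a library. The higher and lower calls of the repressor line, 845 and 745, became 1124 and 407 with total counts.

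Libraries share replicate numbers across groups, but same-numbered libraries did not deviate together: 0 of 9 pairs within a line and 0 of 36 across lines had a correlation over 0.1. With a replicate block within each line, 3 clock genes and 1630 genes in all were called in uninduced activator against uninduced control (3157 without the block), and 0 and 45 in uninduced repressor against uninduced control. The block left the 7 calls of the activator line.

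Of the 10 clock genes Dbp had the fewest counts, 26 to 82 per group.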
